A study of Mus musculus with 15 samples.

Results

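The 10 genes described here encode transcription factors and marker proteins of the pluripotent state: Pou5f1, Nanog, Utf1, Dppa5a, Zfp42, Esrrb, Nr0b1, Klf2, Klf4 and Klf5. They were taken from the expression table by gene symbol, and all 10 were found among its 56092 named genes. The list was drawn up with its pattern in these libraries already known, a fall at 48 h and a part return at 7 d in Sox2-derived cultures. The counts of members that fell or returned therefore describe this list and are no independent evidence of that pattern. Klf4 does not follow it at any step up to 48 h, and the return was not found in every 7 d Sox2-derived group.

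Pluripotent cells of the early mouse embryo, and embryonic stem cells derived from it, are held in their state by a network of transcription factors around Pou5f1 (Oct4), Sox2 and Nanog. In the naive state, the genes Klf2, Klf4, Klf5, Esrrb, Nr0b1 and Zfp42 are also active; several of them are lost as cells pass to the primed epiblast, while Pou5f1 persists until gastrulation. In the tail bud, neuromesodermal progenitors (NMPs) hold both Sox2 and the mesoderm factor Brachyury (Tbxt), and give rise to spinal cord and paraxial mesoderm. Sox2 is shared by the pluripotent and the neural programme, so its level alone does not tell the states apart.

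All libraries came from STR-KI cells, a single mouse embryonic stem cell line in which 1 allele of Sox2 carries mCherry and 1 allele of Tbxt carries GFP, so every group shares both reporters. Cells were taken to NMPs with FGF2 at 10 ng/mL for 48 h and then FGF2 with 5 µM of the WNT pathway activator CHIR for 24 h. After 7 d, 4 groups came from cultured Sox2::mCherry+ cells: double-negative (DN) and Sox2::mCherry+ cells from FGF2 with CHIR (FGF/CHIR DN and FGF/CHIR Sox2+, 1 library each), and DN and Sox2::mCherry+ cells from FGF2 alone (FGF DN, 1 library, and FGF Sox2+, 2 libraries). The Tbxt 7 d group (3 libraries) holds double-negative cells from Tbxt::GFP+ cells cultured for 7 d in FGF/CHIR. At 48 h in FGF/CHIR, cells kept either Tbxt::GFP (Tbxt 48 h, 2 libraries) or Sox2::mCherry (Sox2 48 h, 2 libraries). The starting NMPs, positive for both reporters, gave 3 libraries. The labels do not say whether libraries of a group came from separate cultures, so p-values measure the spread between these libraries, which may be technical, nor whether the 7 d include the first 48 h.

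Values are CPM, counts per 1000000, which are not corrected for transcript length, so levels are compared within a gene and not between genes. Depth was 3.43 to 9.88 M reads in 14 libraries, where 3 reads correspond to 0.304 to 0.874 CPM. FGF Sox2+ replicate 2 had 0.799 M reads, so that 3 reads are 3.76 CPM there. Tests used limma on log2(CPM + 1) over 12943 genes with Benjamini-Hochberg adjustment and a threshold of 0.05. Fold changes are on that log2 scale, which understates changes of low genes. A signed value with a ± in brackets is such a log2 fold change with its standard error. Groups of 1 library borrow their spread from the other groups, which assumes that they vary alike. All 10 members were among the genes tested, but Nr0b1 passed the filter on low values only through FGF Sox2+. Nanog, Esrrb and Klf2 passed it only through 7 d Sox2-derived groups. Elsewhere Klf2 reached 5 CPM only in NMP replicate 1 (5.06 CPM). For Nr0b1, Nanog and Esrrb the fit with no filter is given with the calls, and Klf2 kept each of its calls with no filter. Sox2 followed the gates: its mean was 5.03 to 29.1 CPM in the DN groups of Sox2-derived cultures and 199 to 389 CPM in the Sox2+ groups. Tbxt did not in every group: it measured 20.4 CPM in FGF DN, against 4.88 and 8.76 CPM in FGF Sox2+ cells. With CHIR it measured 1.14 CPM in DN cells, against 15.4 CPM in Sox2+ cells, where NMPs held 284 to 445 CPM. The gate difference of Tbxt differed between media (4.44 ± 0.67, adjusted p = 0.00536).

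Of the 10 members, 8 have an entry in the promoter table of RefSeq for mouse build GRCm38.p6, which is not the build of the alignment (GRCm39), so only the sequence is used. The 250 bases before the annotated start were searched on both strands for 7 short motifs of factors in this network, which were chosen with these sequences in view. The octamer core TTTGCAT, bound by Pou5f1, stood in 2 of the 8 windows, those of Nanog and Zfp42, against 4.06% of all 27025 promoters in the table. In Nanog it lay at bases -75 to -69 from the start, next to a Sox motif, ACAATG, at -67 to -62, which 11.0% of all promoters hold. The KLF motif CCACCC stood in 5 of 8 windows (27.7% of all promoters) and the GC box GGGCGG in 5 of 8 (32.9%). Neither the ERR motif AAGGTCA (4.05%), the TCF motif AACAAAG (4.99%) nor the STAT motif TTCCNGGAA (0.914%) stood in any of the 8. A match is a run of letters and says nothing of binding. The 5 windows below, each printed 5′ to 3′ with every motif match in capitals, belong to the central factor, to both genes with an octamer match, and to the 2 members least alike over the groups (Nr0b1 and Klf4): Pou5f1 (chr17:35505782-35506031, plus strand), Nanog (chr6:122707239-122707488, plus), Zfp42 (chr8:43307010-43307259, minus), Nr0b1 (chrX:86191525-86191774, plus) and Klf4 (chr4:55532476-55532725, minus).
Pou5f1: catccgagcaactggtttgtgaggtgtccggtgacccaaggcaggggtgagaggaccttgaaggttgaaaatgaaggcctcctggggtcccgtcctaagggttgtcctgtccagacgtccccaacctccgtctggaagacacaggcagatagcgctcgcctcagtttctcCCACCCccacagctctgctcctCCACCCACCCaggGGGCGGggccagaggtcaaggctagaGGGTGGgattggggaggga
Nanog: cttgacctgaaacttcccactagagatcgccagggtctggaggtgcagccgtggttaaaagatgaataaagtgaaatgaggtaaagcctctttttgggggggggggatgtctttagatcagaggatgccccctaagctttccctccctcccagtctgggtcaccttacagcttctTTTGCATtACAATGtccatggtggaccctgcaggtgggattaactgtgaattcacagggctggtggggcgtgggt
Zfp42: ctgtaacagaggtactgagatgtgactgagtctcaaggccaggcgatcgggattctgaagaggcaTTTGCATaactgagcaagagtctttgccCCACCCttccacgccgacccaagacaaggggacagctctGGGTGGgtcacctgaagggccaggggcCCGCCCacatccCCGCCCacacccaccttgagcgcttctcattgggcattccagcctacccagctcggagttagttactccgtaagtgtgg
Nr0b1: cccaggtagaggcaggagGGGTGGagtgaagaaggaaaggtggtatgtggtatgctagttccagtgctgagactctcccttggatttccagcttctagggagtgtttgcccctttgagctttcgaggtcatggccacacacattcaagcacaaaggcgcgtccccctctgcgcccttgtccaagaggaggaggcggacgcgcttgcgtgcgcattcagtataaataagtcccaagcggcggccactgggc
Klf4: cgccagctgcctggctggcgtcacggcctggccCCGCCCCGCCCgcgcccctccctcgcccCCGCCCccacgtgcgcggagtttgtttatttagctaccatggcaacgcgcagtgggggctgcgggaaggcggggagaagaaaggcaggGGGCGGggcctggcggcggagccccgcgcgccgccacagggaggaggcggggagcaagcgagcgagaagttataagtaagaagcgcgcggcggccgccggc
The Klf4 window held 32 CpG dinucleotides and was 74.0% G or C, against 3 CpG and 52.0% in Nanog. The median promoter of the table held 6 CpG and was 52.0% G or C.

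**Figure D1:**
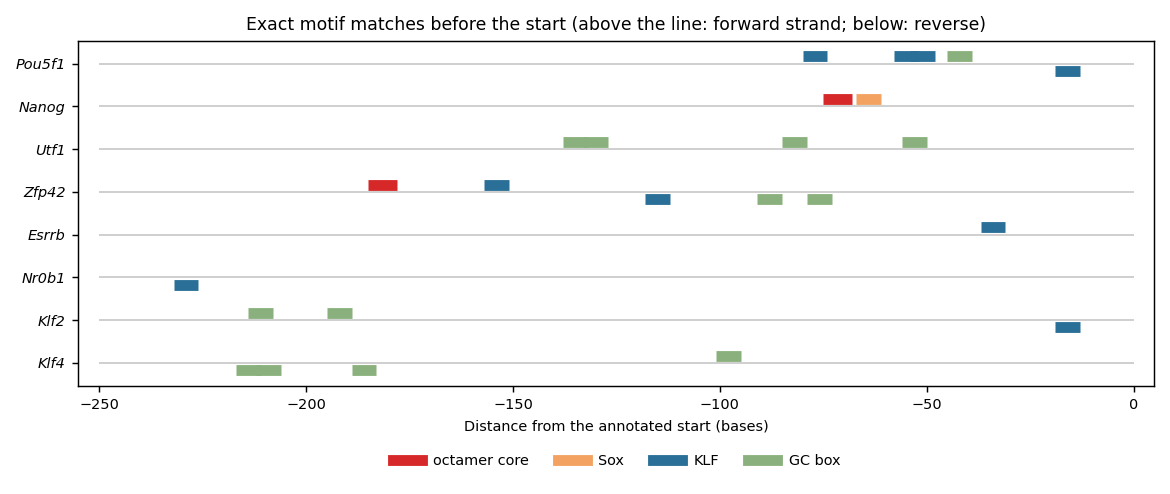
Exact matches of 4 motifs in the 250 bases before the annotated start of the 8 members with a promoter entry, drawn by distance from the start in bases, forward-strand matches above each line and reverse-strand matches below. Octamer core matches appear in Nanog and Zfp42 only, and Nr0b1 and Esrrb hold 1 KLF match each.

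By 48 h, 9 of the 10 members were called lower in cells that kept Tbxt and 5 in cells that kept Sox2, each against NMPs. The shares of all genes called lower were 10.5% and 5.27%. In Tbxt 48 h cells the calls of Nanog, Esrrb and Nr0b1 ended with no filter. Pou5f1, the central POU factor of pluripotency, stood at 0.658 and 0.675 CPM in Tbxt 48 h cells and at 2.65 and 3.43 CPM in Sox2 48 h cells, against 152, 92.7 and 125 CPM in NMPs. The 3 groups did not overlap. Pou5f1 fell in Tbxt 48 h cells (-6.19 ± 0.41, limma adjusted p = 2.75e-06) and in Sox2 48 h cells (-4.92 ± 0.41, adjusted p = 2.09e-05). Sox2 itself, its partner factor, averaged 219 CPM in Sox2 48 h cells, against 209.7 ± 40.5 CPM in NMPs (SD, n = 2 and 3), a difference within the spread (adjusted p = 0.921). In bulk libraries, fewer cells that express a gene and less RNA per cell cannot be told apart.

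Nanog, the homeodomain factor of the naive network, was already low in NMPs. It was listed at 0 in both Tbxt 48 h libraries and in 1 of 2 Sox2 48 h libraries, the other holding 0.252 CPM (1 read), against 3.24, 3.38 and 3.60 CPM in NMPs. A level of 0 allows up to 0.304 and 0.506 CPM in the Tbxt 48 h libraries. The difference passed the test in Tbxt 48 h cells (adjusted p = 0.0270) and missed it in Sox2 48 h cells (adjusted p = 0.0657). With no filter the call in Tbxt 48 h cells ended.

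The 3 markers of undifferentiated cells all fell in both 48 h groups. Utf1, a chromatin-associated protein of pluripotent cells, measured 0.101 and 0 CPM in Tbxt 48 h cells (1 read in all) and 3.28 and 2.74 CPM in Sox2 48 h cells, against 40.2, 20.1 and 29.7 CPM in NMPs. Dppa5a, an RNA-binding protein of stem cells and early germ cells, measured 0.641 and 0.338 CPM in Tbxt 48 h cells and 3.16 and 3.12 CPM in Sox2 48 h cells, against 154, 102 and 119.6 CPM in NMPs. Zfp42 (Rex1), a zinc finger protein used as a marker of the naive state, kept the largest share of the 3. It measured 2.33 and 3.88 CPM in Tbxt 48 h cells and 6.18 and 5.94 CPM in Sox2 48 h cells, against 17.2, 25.1 and 25.4 CPM in NMPs. Dppa5a fell in Tbxt 48 h cells (-6.39 ± 0.94, adjusted p = 0.00143) and in Sox2 48 h cells (-4.91 ± 0.94, adjusted p = 0.0111). Zfp42 fell in Tbxt 48 h cells (-2.53 ± 0.43, adjusted p = 0.00161) and in Sox2 48 h cells (-1.72 ± 0.43, adjusted p = 0.0280). Utf1 passed with adjusted p = 1.13e-05 in Tbxt 48 h cells and 0.0008 in Sox2 48 h cells.

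Esrrb, an orphan nuclear receptor of the naive network, and Nr0b1 (Dax1), a nuclear receptor that lacks the usual DNA-binding domain, were low throughout the first steps. Nr0b1 measured 0.709 and 0.844 CPM in Tbxt 48 h cells and 1.77 and 0.686 CPM in Sox2 48 h cells, against 2.46, 4.02 and 3.13 CPM in NMPs. Esrrb measured 0.202 and 0 CPM in Tbxt 48 h cells and 1.77 and 0.686 CPM in Sox2 48 h cells, against 2.98, 1.93 and 3.13 CPM in NMPs. Both were called lower in Tbxt 48 h cells (adjusted p = 0.0241 for Esrrb and 0.0382 for Nr0b1), but these calls ended with no filter. Neither gene passed the test in Sox2 48 h cells (adjusted p = 0.415 and 0.161).

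The 3 Krüppel-like factors, zinc finger proteins that in mouse embryonic stem cells share many targets, parted ways. Klf5 measured 7.34 and 8.35 CPM in Tbxt 48 h cells and 21.6 and 13.4 CPM in Sox2 48 h cells, against 60.6, 84.1 and 94.5 CPM in NMPs. It fell in Tbxt 48 h cells (-3.17 ± 0.39, adjusted p = 0.00028) and in Sox2 48 h cells (-2.14 ± 0.39, adjusted p = 0.00613). Klf2 measured 0.405 and 0.338 CPM in Tbxt 48 h cells and 1.01 and 0.914 CPM in Sox2 48 h cells, against 5.06, 1.93 and 4.53 CPM in NMPs, and passed the test only in Tbxt 48 h cells (adjusted p = 0.0104, against 0.0888 in Sox2 48 h cells). Klf4 did not share the fall. It measured 4.49 and 7.85 CPM in Tbxt 48 h cells, a range that holds all NMP values, and 11.0 and 10.9 CPM in Sox2 48 h cells, against 5.29, 5.71 and 7.15 CPM in NMPs (adjusted p = 0.995 and 0.352).

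In all, 9 of 10 members fell and none rose in Tbxt 48 h cells, where 10.5% of all genes tested were called lower, and the members' median was -2.33 against -0.02 over all genes. In Sox2 48 h cells 5 of 10 fell, against 5.27% of all genes called lower, with a median of -1.85 against -0.01. The difference between both 48 h groups was tested directly: only Utf1 differed, being lower in the cells that kept Tbxt (-1.93 ± 0.45, adjusted p = 0.0304), where 1.85% of all genes were called lower. For Pou5f1 the same difference was -1.27 ± 0.45 (adjusted p = 0.145). That comparison shares its libraries with both others. The call of Utf1 ended without any of the 4 libraries (Tbxt 48 h replicates 1 and 2, adjusted p = 0.0852 and 0.240, and Sox2 48 h replicates 1 and 2, adjusted p = 0.119 and 0.164). In Sox2 48 h cells, the call of Zfp42 ended without NMP replicate 2 or 3 or either Sox2 48 h replicate (adjusted p = 0.0924 to 0.186), that of Dppa5a without Sox2 48 h replicate 1 or 2 (0.0666 and 0.0870) and that of Klf5 without Sox2 48 h replicate 2 (0.0874). In Tbxt 48 h cells, the calls of Nanog, Esrrb and Nr0b1 ended with no filter (adjusted p = 0.0701, 0.0608 and 0.0557). The calls of Nanog and Nr0b1 there also ended without any of the 5 libraries of both groups (adjusted p = 0.0576 to 0.190), that of Esrrb without any of them but NMP replicate 2 (0.0712 to 0.192), and that of Klf2 without Tbxt 48 h replicate 1 or 2 (0.0513 and 0.0980).

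**Figure D2:**
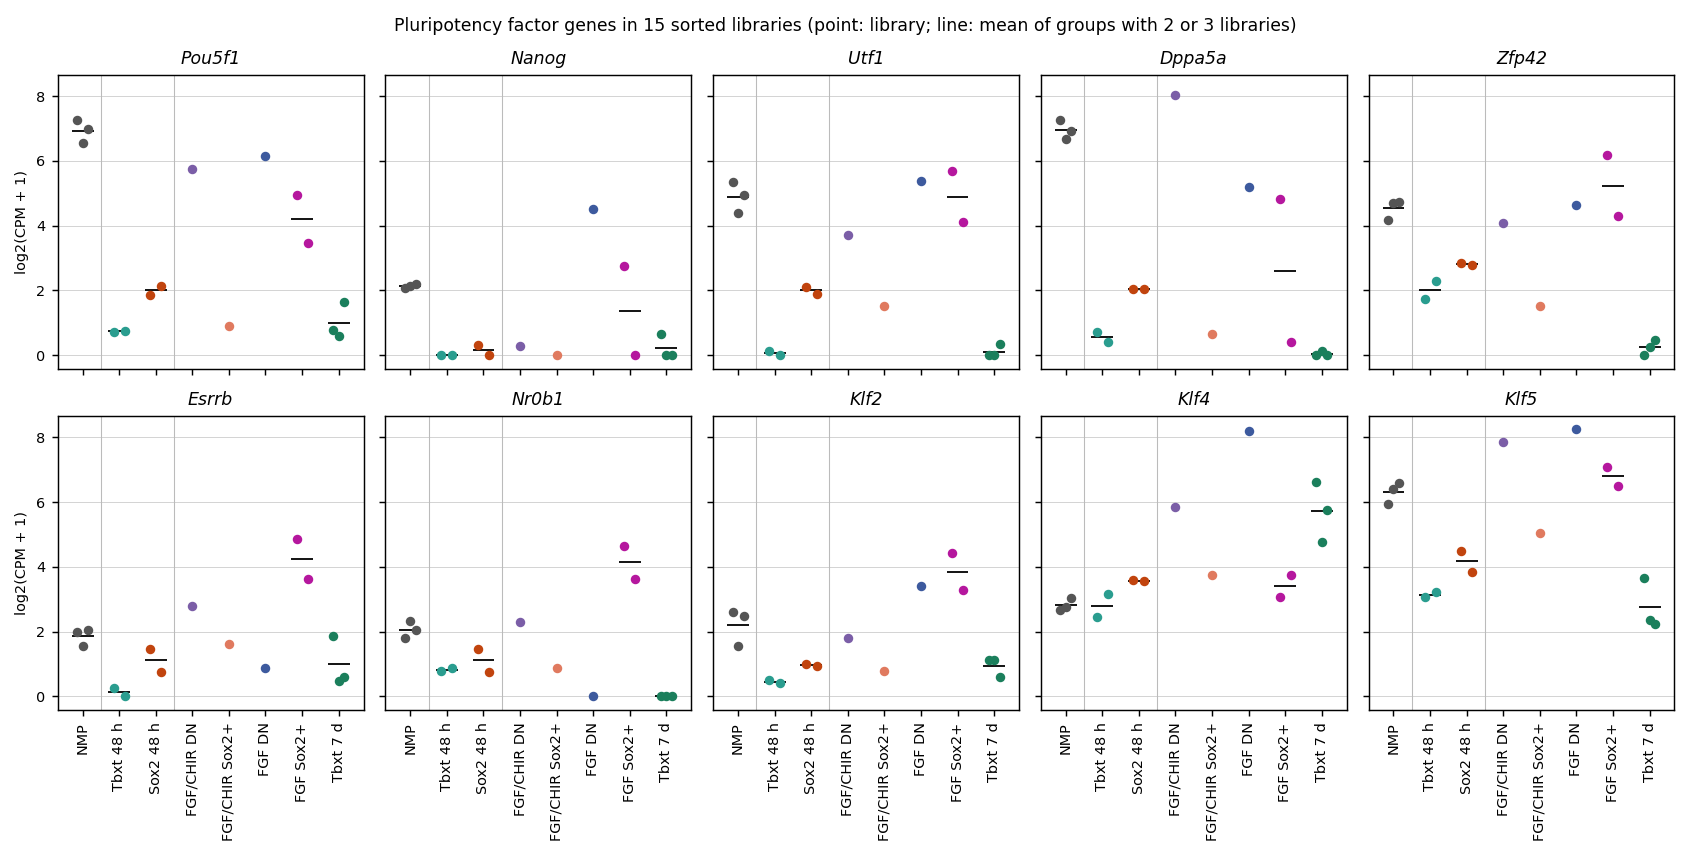
Each panel plots 1 member as log2(CPM + 1) in the 15 libraries by group, with a line at the mean of groups of 2 or 3 libraries. Pou5f1 falls below 4 CPM in the 48 h libraries and reappears in the DN and FGF Sox2+ groups, while Klf4 reaches 292 CPM in FGF DN and 26.2 to 97.3 CPM in Tbxt 7 d.

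After 7 d, Sox2-derived cells kept in FGF alone and still Sox2+ held 7 of the members at higher levels than Sox2 48 h cells. Pou5f1 measured 30.1 and 10.0 CPM in FGF Sox2+ cells, against 2.65 and 3.43 CPM in Sox2 48 h cells. Utf1 measured 50.5 and 16.3 CPM in FGF Sox2+ cells, against 3.28 and 2.74 CPM in Sox2 48 h cells. In both genes the lower FGF Sox2+ library lay above both 48 h libraries. Pou5f1 rose by 2.20 ± 0.45 (adjusted p = 0.00405) and Utf1 by 2.90 ± 0.45 (adjusted p = 0.000629).

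Zfp42, the Rex1 gene, measured 71.3 and 18.8 CPM in FGF Sox2+ cells, against 6.18 and 5.94 CPM in Sox2 48 h cells, a rise of 2.42 ± 0.47 (adjusted p = 0.00299). The nuclear receptor genes rose too. Esrrb measured 27.8 and 11.3 CPM in FGF Sox2+ cells, against 1.77 and 0.686 CPM in Sox2 48 h cells, and rose by 3.12 ± 0.52 (adjusted p = 0.00107). Nr0b1 measured 24.2 and 11.3 CPM in FGF Sox2+ cells, against 1.77 and 0.686 CPM in Sox2 48 h cells, and rose by 3.03 ± 0.41 (adjusted p = 0.000272). Since Nr0b1 was tested only because it was high in FGF Sox2+ cells, its calls that involve that group are partly set by the filter; with no filter the adjusted p was 0.000936 for Nr0b1 and 0.00502 for Esrrb. The Klf genes again differed. Klf2 measured 20.4 and 8.76 CPM in FGF Sox2+ cells, against 1.01 and 0.914 CPM in Sox2 48 h cells, and rose by 2.88 ± 0.45 (adjusted p = 0.000648). Klf5 measured 134 and 90.1 CPM in FGF Sox2+ cells, against 21.6 and 13.4 CPM in Sox2 48 h cells, and rose by 2.62 ± 0.43 (adjusted p = 0.00128). Klf4, at 7.33 and 12.5 CPM in FGF Sox2+ cells, against 11.0 and 10.9 CPM in Sox2 48 h cells, overlapped between the groups.

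The count of 7 of 10 higher stands beside 18.2% of all genes tested called higher and 6.51% lower, and the members' median was 2.52 against 0.17 over all genes. The list was drawn up with this return known, so neither the count nor the median is independent evidence of it. Nr0b1, Esrrb and Klf2 passed the filter only through 7 d Sox2-derived groups, but kept these calls with no filter. Another scaling, by median of ratios, shifted the median of all genes by -0.16 and quantile normalization by -0.19. With these, 13.3% and 11.3% of all genes were called higher and 10.5% and 10.4% lower, and the same count of 7 members higher and 0 lower was found. The 2 FGF Sox2+ libraries differed: replicate 1 was above replicate 2 in 9 of the 10 members, Klf4 excepted. Dppa5a showed the widest gap, with 27.3 and 0.313 CPM in the 2 libraries, against 3.16 and 3.12 CPM in Sox2 48 h cells (adjusted p = 0.727). Without FGF Sox2+ replicate 1 its difference was -1.66 (adjusted p = 0.00359), and without replicate 2 it was 2.77 (adjusted p = 0.000152), so its direction rests on the library. Nanog measured 5.73 and 0 CPM in FGF Sox2+ cells, but 3 reads in the second library are 3.76 CPM, so a level like that of NMPs was not detectable there. The 7 members that rose stayed past the threshold without either FGF Sox2+ replicate, with rises of 1.45 to 2.51 without replicate 1 and 2.90 to 3.74 without replicate 2. Between these 2 fits the rise moved by over 1.5-fold for 6 of the 7, Klf5 excepted. The same libraries differed in other lists: the epithelial marker sum was 626 and 348 CPM, the neural progenitor sum 779.6 and 1296 CPM and the mesenchymal sum 85.1 and 447 CPM in replicates 1 and 2. Marker lists of other cell types were called in the same comparison with Sox2 48 h cells: 5 of 6 neural progenitor, 5 of 5 neuron and 2 of 6 endoderm markers tested were higher and none lower, and of 5 trophoblast markers 3 were higher and 1, Tfap2a, lower. The higher ones were Eomes (4.43 ± 0.43), Hand1 (5.35 ± 0.47) and Ascl2 (2.31 ± 0.47), and Elf5 was not among the genes tested. The trophoblast sum was 146 and 82.6 CPM in FGF Sox2+ replicates 1 and 2, against 41.6 and 47.3 CPM in Sox2 48 h cells, so it was higher in the replicate with the higher members. The neuron sum was 186 and 631 CPM, against 20.2 and 36.9 CPM. The part of these lists in the members' values was not tested.

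Set against the NMPs themselves, FGF Sox2+ cells did not return to the starting pattern. Pou5f1, at 30.1 and 10.0 CPM in FGF Sox2+ cells, stayed below the 152, 92.7 and 125 CPM of NMPs (-2.72 ± 0.41, adjusted p = 0.000516), and Dppa5a was lower (-4.35 ± 0.94, adjusted p = 0.00817). Esrrb, Nr0b1 and Klf2 stood above the NMP level instead, with no overlap between the groups. Esrrb was higher by 2.37 ± 0.47 (adjusted p = 0.00317), Nr0b1 by 2.08 ± 0.37 (adjusted p = 0.00161) and Klf2 by 1.65 ± 0.41 (adjusted p = 0.0107). Utf1 (50.5 and 16.3 CPM in FGF Sox2+ cells, against 40.2, 20.1 and 29.7 CPM in NMPs) and Zfp42 (71.3 and 18.8 CPM, against 17.2, 25.1 and 25.4 CPM) overlapped. With no filter the adjusted p was 0.0115 for Esrrb and 0.00362 for Nr0b1. Thus 3 of 10 were higher and 2 lower, beside 17.8% of all genes called higher and 8.21% lower. Median-of-ratios scaling gave 13.1% and 11.9%, and quantile normalization 12.5% and 12.4%, with the same 3 and 2 counts of members. Without FGF Sox2+ replicate 1, the call of Klf2 ended (1.08, adjusted p = 0.0915), the difference of Pou5f1 was -3.47 and that of Dppa5a -6.57. Without replicate 2, the differences of Pou5f1 and Dppa5a were -1.97 and -2.13, and Zfp42 was called higher (1.64, adjusted p = 0.00770).

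In Sox2-derived cells kept in FGF/CHIR and still Sox2+, measured in 1 library, no such return was called. Pou5f1 measured 0.874 CPM and Dppa5a 0.583 CPM in the single FGF/CHIR Sox2+ library, against 2.65 and 3.43 CPM and 3.16 and 3.12 CPM in Sox2 48 h cells. Nanog was listed at 0, which allows up to 0.308 CPM. Klf5 (32.1 CPM, against 21.6 and 13.4 CPM), Esrrb (2.06 CPM, against 1.77 and 0.686 CPM) and Klf4 (12.3 CPM, against 11.0 and 10.9 CPM) lay above both Sox2 48 h libraries. In limma none of the 10 members was called against Sox2 48 h cells (1 of 10 at an unadjusted p under 0.05), beside 1.81% of all genes called in either direction (1.64% higher and 0.17% lower). With median-of-ratios scaling 1.24% of all genes were called higher and 0.270% lower, and with quantile normalization 0.950% and 0.232%, again with no member. Against NMPs, Pou5f1 (-6.02 ± 0.52), Utf1 (-3.39 ± 0.52), Dppa5a (-6.30 ± 1.19) and Zfp42 (-3.03 ± 0.54) fell, with adjusted p = 2.60e-05 to 0.00901, 4 of 10 members beside 3.87% of all genes called lower. The shares of all genes called higher and lower there were 5.86% and 3.87%, and 4.84% and 4.88% with median-of-ratios scaling or 5.02% and 5.19% with quantile normalization, with the same 4 members' count.

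The media were compared within the Sox2+ gate. With CHIR, 6 of 10 members were lower than without it, beside 5.6% of all genes called lower. Pou5f1 measured 0.874 CPM in the library with CHIR, against 30.1 and 10.0 CPM in FGF Sox2+ cells, and was lower (-3.31 ± 0.55, adjusted p = 0.00275). Nr0b1 measured 0.822 CPM in the library with CHIR, against 24.2 and 11.3 CPM in FGF Sox2+ cells, and was lower (-3.27 ± 0.50, adjusted p = 0.00149). Utf1, Zfp42, Klf2 and Esrrb were lower, with differences of -3.39, -3.73, -3.07 and -2.62 (adjusted p = 0.00162 to 0.0221). With no filter the adjusted p was 0.00315 for Nr0b1 and 0.0432 for Esrrb. Klf5, at 32.1 CPM with CHIR, against 134 and 90.1 CPM without it, missed the threshold (adjusted p = 0.0612). It was called lower, as the seventh member, with quantile normalization, a pseudocount of 4 or the compared groups alone (adjusted p = 0.0415, 0.0273 and 0.00282). The call of Esrrb ended without FGF Sox2+ replicate 1 (-2.01, adjusted p = 0.0783). Without that library the 6 differences ran from -2.79 to -2.01, and without replicate 2 from -4.67 to -3.24. The FGF/CHIR Sox2+ library also held a lower epithelial marker sum, 76.7 CPM against 348 to 626 CPM in FGF Sox2+ cells, and a lower neural progenitor sum, 413 CPM against 779.6 to 1296 CPM, and a lower trophoblast sum, 20.6 CPM against 82.6 to 146 CPM, whose part was not tested.

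**Figure D3:**
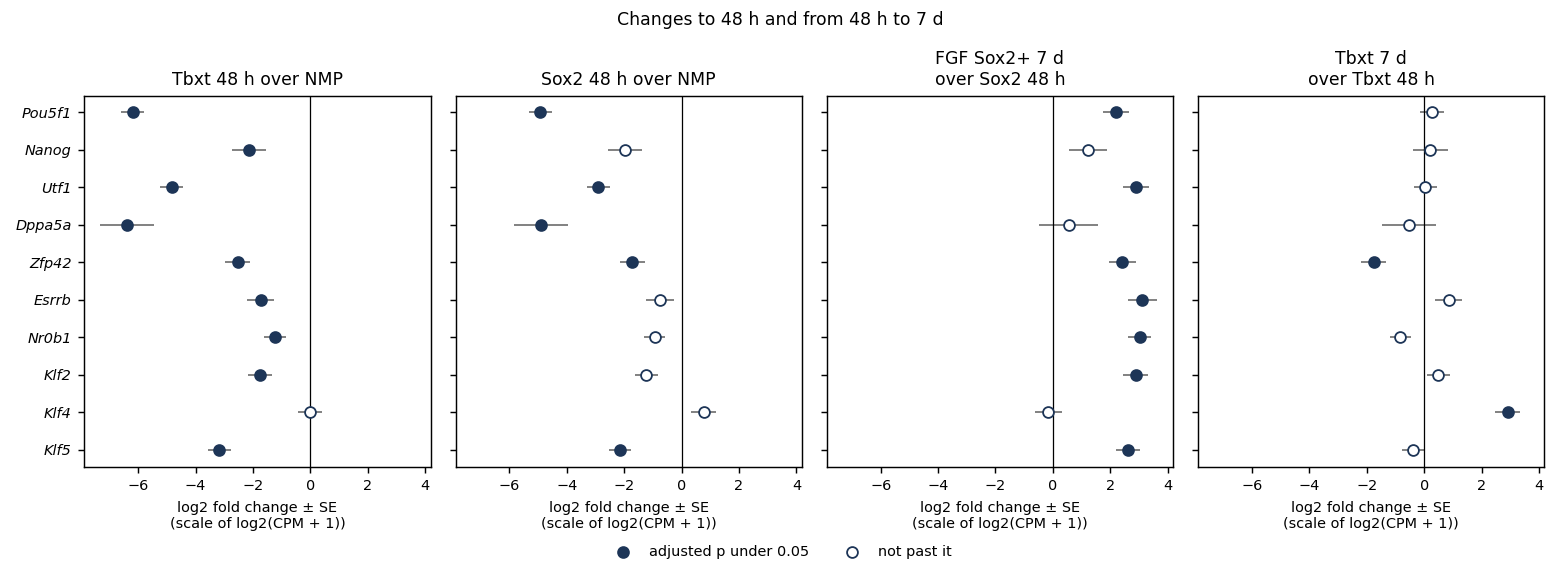
Differences of the 10 members on the log2(CPM + 1) scale, with standard errors, in Tbxt 48 h cells and Sox2 48 h cells over NMPs, FGF Sox2+ 7 d cells over Sox2 48 h cells, and Tbxt 7 d cells over Tbxt 48 h cells; filled points have an adjusted p under 0.05. Filled points lie left of 0 in both left panels and right of 0 in the third, and in the fourth only Klf4 (2.91) and Zfp42 (-1.76) are filled.

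The cells that had lost Sox2::mCherry in Sox2-derived cultures held several members at high levels, in both media. Pou5f1 measured 52.5 CPM in FGF/CHIR DN cells, against 0.874 CPM in FGF/CHIR Sox2+ cells. It measured 70.3 CPM in FGF DN cells, against 30.1 and 10.0 CPM in FGF Sox2+ cells. Sox2, its partner, was low in the same DN libraries (5.03 CPM in FGF/CHIR DN and 29.1 CPM in FGF DN). Averaged over both media, Pou5f1 was higher in DN than in Sox2+ cells by 3.39 ± 0.42 (adjusted p = 0.000204), while Sox2 was lower (-4.37 ± 0.30, adjusted p = 2.39e-06).

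Dppa5a reached its highest level of all groups in FGF/CHIR DN cells, 264 CPM, against 0.583 CPM in FGF/CHIR Sox2+ cells. In FGF alone it measured 35.9 CPM in DN cells, against 27.3 and 0.313 CPM in Sox2+ cells. Klf4 measured 56.9 CPM in FGF/CHIR DN cells and 292 CPM in FGF DN cells, against 12.3 CPM in FGF/CHIR Sox2+ and 7.33 and 12.5 CPM in FGF Sox2+ cells. Klf5 measured 233 CPM in FGF/CHIR DN cells and 305 CPM in FGF DN cells, against 32.1 CPM in FGF/CHIR Sox2+ and 134 and 90.1 CPM in FGF Sox2+ cells. For Klf4 and Klf5, each DN library lay above the Sox2+ libraries of its medium. Averaged over media, Dppa5a was higher in DN cells by 4.99 ± 0.96, Klf4 by 3.45 ± 0.44 and Klf5 by 2.14 ± 0.40 (adjusted p = 0.00791, 0.000397 and 0.00454). Without FGF Sox2+ replicate 1 the difference of Dppa5a was 6.10, and without replicate 2 it was 3.88. Fitted on these 4 groups alone, with 1 residual degree of freedom among libraries, its adjusted p was 0.549.

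Nanog was highest in FGF DN cells, with 21.7 CPM, against 5.73 and 0 CPM in FGF Sox2+ cells, and stood at 0.229 CPM (1 read) in FGF/CHIR DN cells. Over both media its difference missed the threshold (adjusted p = 0.0836), and so did that of Utf1 (adjusted p = 0.0503), which measured 12.1 CPM in FGF/CHIR DN cells and 40.2 CPM in FGF DN cells, against 1.85 CPM in FGF/CHIR Sox2+ and 50.5 and 16.3 CPM in FGF Sox2+ cells. With median-of-ratios scaling or quantile normalization Utf1 was called higher (adjusted p = 0.0386 and 0.0428). Zfp42 measured 16.1 CPM in FGF/CHIR DN cells and 23.7 CPM in FGF DN cells, against 1.85 CPM in FGF/CHIR Sox2+ and 71.3 and 18.8 CPM in FGF Sox2+ cells. Klf2 measured 2.51 CPM in FGF/CHIR DN cells and 9.70 CPM in FGF DN cells, against 0.720 CPM in FGF/CHIR Sox2+ and 20.4 and 8.76 CPM in FGF Sox2+ cells. Neither passed the test.

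Esrrb and Nr0b1 ran the other way in FGF. Nr0b1 was listed at 0 in FGF DN cells, which allows up to 0.619 CPM, against 24.2 and 11.3 CPM in FGF Sox2+ cells. In FGF/CHIR it measured 3.89 CPM in DN cells, against 0.822 CPM in Sox2+ cells. Esrrb measured 0.825 CPM in FGF DN cells, against 27.8 and 11.3 CPM in FGF Sox2+ cells. In FGF/CHIR it measured 5.94 CPM in DN cells, against 2.06 CPM in Sox2+ cells. The difference between gates depended on the medium for both: the DN over Sox2+ difference in FGF minus that in FGF/CHIR had an adjusted p of 0.0286 for Esrrb and 0.00297 for Nr0b1. With no filter it was 0.0278 and 0.00185. The call of Esrrb held in 7 of 9 alternatives to the processing and that of Nr0b1 in all 9. That comparison was added after the data had been seen, and 1.69% of all genes were called lower in it. Averaged over both media, Nr0b1 was called lower in DN cells (adjusted p = 0.0329), a call that covers opposite differences in the 2 media (0.0343 with no filter).

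In all, 4 of 10 members were higher and 1 lower in DN than in Sox2+ cells, beside 7.12% of all genes called higher and 6.99% lower. With median-of-ratios scaling, which shifted the median of all genes by 0.11, 9.32% were called higher and 4.71% lower, and the members' counts were 5 and 1. Since each DN group is 1 library, no DN library could be left out. Markers of other cell types differed between the same libraries. The 10 endoderm markers summed to 300.1 CPM in FGF/CHIR DN and 1183 CPM in FGF DN, against 6.17 CPM in FGF/CHIR Sox2+ and 10.8 and 20.03 CPM in FGF Sox2+ cells, and all 6 of them tested were called higher in DN cells. Afp and Apoa1 were at 0 in FGF/CHIR DN. The 9 epithelial markers summed to 493 CPM in FGF/CHIR DN and 1386 CPM in FGF DN, against 76.7 CPM in FGF/CHIR Sox2+ and 348 to 626 CPM in FGF Sox2+ cells, with 8 of 9 called higher. The 7 endothelial markers summed to 253 CPM in FGF DN, against 11.7 and 17.5 CPM in FGF Sox2+ cells. Their sum was 18.5 CPM in FGF/CHIR DN, against 2.06 CPM in FGF/CHIR Sox2+. The 6 mesenchymal markers summed to 2283 CPM in FGF/CHIR DN, against 536 CPM in FGF/CHIR Sox2+. In FGF DN the mesenchymal sum was 398 CPM, within the range of FGF Sox2+ cells (85.1 and 447 CPM). The 8 germ cell markers summed to 282 CPM in FGF DN and 80.3 CPM in FGF/CHIR DN, against 50.6 CPM in FGF/CHIR Sox2+ and 48.8 to 66.6 CPM in FGF Sox2+ cells. Of these 8, 2 were over 5 CPM in FGF DN and 3 in FGF/CHIR DN. The germ cell gene Dppa3 was at 0 in both DN libraries, but also in FGF/CHIR Sox2+, both 48 h groups and Tbxt 7 d cells. Nanos3 was at 0 in FGF DN. The part of these cell types in the members' levels was not tested.

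**Figure D4:**
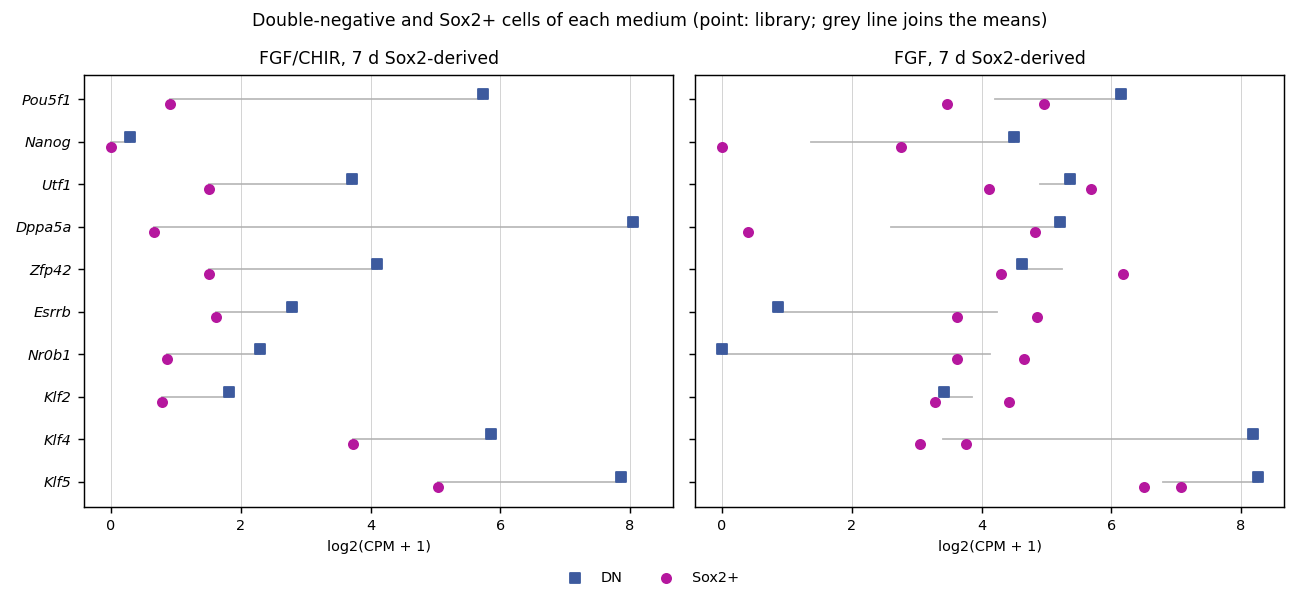
Members in double-negative (squares) and Sox2+ (circles) libraries of 7 d Sox2-derived cultures in FGF/CHIR (left) and FGF (right), as log2(CPM + 1). In FGF/CHIR every DN point lies right of its Sox2+ point, whereas in FGF Esrrb and Nr0b1 lie left, Nr0b1 with 0 CPM in DN cells against 11.3 and 24.2 CPM in Sox2+ cells.

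The Tbxt-derived cells, which were double-negative after 7 d in FGF/CHIR, kept most members at the low level of Tbxt 48 h cells. Pou5f1 measured 0.728, 0.495 and 2.11 CPM in Tbxt 7 d cells, against 0.658 and 0.675 CPM in Tbxt 48 h cells. Nr0b1 was listed at 0 in all 3 Tbxt 7 d libraries, Nanog in 2 and Utf1 in 2 of 3. A level of 0 allows up to 0.874, 0.594 and 0.790 CPM in Tbxt 7 d replicates 1, 2 and 3. Nr0b1 had measured only 0.709 and 0.844 CPM in Tbxt 48 h cells. Zfp42 fell further, to 0, 0.198 and 0.395 CPM in Tbxt 7 d cells, against 2.33 and 3.88 CPM in Tbxt 48 h cells (adjusted p = 0.00386), a call that ended without Tbxt 48 h replicate 2 (adjusted p = 0.0518). Klf5 measured 11.6, 4.16 and 3.69 CPM in Tbxt 7 d cells, against 7.34 and 8.35 CPM in Tbxt 48 h cells. Klf4 alone rose: it measured 97.3, 26.2 and 52.6 CPM in Tbxt 7 d cells, against 4.49 and 7.85 CPM in Tbxt 48 h cells, with no overlap (2.91 ± 0.43, adjusted p = 0.00016). Klf4 is also expressed outside pluripotent cells, in epithelia, endothelium and smooth muscle among others. The count of 1 higher and 1 lower stands beside 30.7% of all genes called higher and 23.5% lower. Quantile normalization, which shifted the median of all genes by -0.19, gave 22.8% and 29.0%, with 1 member higher and 2 lower, the second being Nr0b1 (adjusted p = 0.0292). In the same comparison all 6 mesenchymal markers were called higher, with sums of 6361 to 7661 CPM in Tbxt 7 d cells, and 6 of 12 immediate early genes tested were called higher and 1 lower. Immediate early genes, which respond to stimulation within minutes, summed to 1087 CPM in Tbxt 7 d replicate 1, the library with the highest Klf4, and to 663 and 729.9 CPM in replicates 2 and 3. In FGF DN the same sum was 524 CPM with Klf4 at 292 CPM, and in FGF/CHIR Sox2+ it was 782 CPM with Klf4 at 12.3 CPM. In FGF/CHIR DN it was 804 CPM with Klf4 at 56.9 CPM. The FGF Sox2+ libraries held 463 and 457 CPM with Klf4 at 7.33 and 12.5 CPM. Tbxt 7 d replicate 1 also stood apart in other lists, such as the LIF and STAT3 response (451 CPM, against 202 and 209 CPM). The part of the immediate early genes in the rise of Klf4 was not tested.

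The change from 48 h to 7 d was set between the 2 lineages, FGF Sox2+ over Sox2 48 h cells minus Tbxt 7 d over Tbxt 48 h cells. The media and gates differ as well, FGF and Sox2+ for the Sox2-derived cells and FGF/CHIR and double-negative for the Tbxt-derived cells. In this comparison lineage, medium and gate cannot be told apart. FGF/CHIR DN cells share medium and gate with Tbxt 7 d cells. Pou5f1, Dppa5a and Klf5 measured 52.5, 264 and 233 CPM in FGF/CHIR DN, against at most 2.11, 0.099 and 11.6 CPM in Tbxt 7 d. Klf4 (56.9 CPM) and Nanog (0.229 CPM) lay within the Tbxt 7 d range. That pair of groups was not tested. From 48 h to 7 d, the Sox2-derived change was the higher in 7 members and the lower in 1, Klf4. Of all genes, 19.4% were called higher and 14.2% lower. Zfp42 differed by 4.19 ± 0.64 (adjusted p = 0.000462), and Klf4 by -3.08 ± 0.64 (adjusted p = 0.00388). The call of Nr0b1 had an adjusted p of 0.00102 with no filter. Without FGF Sox2+ replicate 1 the difference of Zfp42 was 3.25 and that of Utf1 2.07, and without replicate 2 they were 5.12 and 3.64. The call of Pou5f1 ended without FGF Sox2+ replicate 1, Tbxt 7 d replicate 2 or any of the 4 libraries of 48 h (adjusted p = 0.0555 to 0.114). That of Esrrb ended with no filter (adjusted p = 0.0652) and without FGF Sox2+ replicate 1, Sox2 48 h replicate 2, Tbxt 48 h replicate 1 or 2, or Tbxt 7 d replicate 2 or 3 (adjusted p = 0.0537 to 0.102).

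The members did not share 1 order of groups. Of the 10, 4 (Nanog, Utf1, Klf4 and Klf5) had their highest mean in FGF DN, 4 (Zfp42, Esrrb, Nr0b1 and Klf2) in FGF Sox2+, Dppa5a in FGF/CHIR DN and only Pou5f1 in NMPs. For Utf1, FGF DN (40.2 CPM) lay within the range of FGF Sox2+ (16.3 and 50.5 CPM) and just above the highest NMP library (range 20.1 to 40.2 CPM), and the FGF Sox2+ and NMP ranges overlapped. For Zfp42, FGF DN (23.7 CPM) likewise lay within the ranges of FGF Sox2+ (18.8 and 71.3 CPM) and NMPs (17.2 to 25.4 CPM). Over the 8 group means of log2(CPM + 1), Pearson's r was 0.94 between Utf1 and Zfp42, 0.93 between Pou5f1 and Dppa5a and 0.91 between Esrrb and Nr0b1. It was -0.44 between Nr0b1 and Klf4 and -0.09 between Nanog and Nr0b1. These are descriptions over 8 means, 3 of them from 1 library.

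Among the other genes tested, those with the pattern most like Pou5f1 over the same 8 means were the tight junction gene Ocln (r = 0.97), Gm35588 (0.96), Npepl1 (0.96), the actin-capping gene Capg (0.96) and the pseudogene Cox5b-ps (0.96). Ocln averaged 16.3 CPM in FGF DN, 7.09 CPM in FGF/CHIR DN, 3.58 CPM in FGF Sox2+ and 0.720 CPM in FGF/CHIR Sox2+ cells, and 12.1 CPM in NMPs. The epithelial marker list moved with the members in some comparisons: 6 of 9 fell in Tbxt 48 h cells and 3 of 9 in Sox2 48 h cells against NMPs, and 8 of 9 were higher in FGF Sox2+ than in Sox2 48 h cells. The matching shares of all genes were 10.5% lower, 5.27% lower and 18.2% higher. Its summed level was 3.76 to 5.24 CPM in Tbxt 7 d, 10.5 to 13.4 CPM in Tbxt 48 h, 43.8 to 61.5 CPM in Sox2 48 h cells, against 193 to 232 CPM in NMPs. In FGF Sox2+ cells the sum was 348 to 626 CPM, above that of NMPs. Of the 10 members, 3 were higher there than in NMPs and 2, Pou5f1 and Dppa5a, were lower. The part of the epithelial list in the members' changes was not tested.

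Of 18 other genes listed for the naive network, 11 were tested. The shares of all genes called are 10.5% lower in Tbxt 48 h and 5.27% lower in Sox2 48 h cells, 18.2% higher and 6.51% lower in FGF Sox2+ over Sox2 48 h cells, and 7.12% higher and 6.99% lower in DN over Sox2+ cells, for this list and those that follow. In Tbxt 48 h cells 7 fell and none rose, led by Lefty1 (-3.94 ± 0.42), the Nodal antagonist, and Tfcp2l1 (-3.45 ± 0.51), a naive-state transcription factor. In Sox2 48 h cells 5 fell and none rose, led by Fgf4 (-4.26 ± 0.49), the FGF made by the inner cell mass, and Lefty1 (-4.05 ± 0.42). In FGF Sox2+ over Sox2 48 h cells 7 rose and none fell, led by L1td1 (3.79 ± 0.64), an RNA-binding protein, and Tbx3 (2.90 ± 0.51), a T-box factor. Against NMPs, FGF Sox2+ cells held Tbx3 higher (2.999 ± 0.46) and Fgf4, Lefty1 and Gbx2 lower (-3.30 ± 0.49, -2.64 ± 0.42 and -1.25 ± 0.32). In DN over Sox2+ cells L1td1 (2.30 ± 0.59) and Tbx3 (2.17 ± 0.48) were higher and Gbx2 (-2.25 ± 0.33) was lower. In Tbxt 7 d over Tbxt 48 h cells 2 rose and 3 fell, shares near or below those of all genes (30.7% higher and 23.5% lower). The 2 that rose were Tbx3 (3.61 ± 0.46) and Lefty1 (1.34 ± 0.42), so the rise of Tbx3 was not confined to Sox2-derived cells.

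Genes shared by pluripotent and later progenitor states made up another list. Of 8 tested, none was called in Sox2 48 h cells over NMPs, 1 rose and 1 fell in Tbxt 48 h cells, and 3 rose and 1 fell in FGF Sox2+ over Sox2 48 h cells. In Tbxt 7 d over Tbxt 48 h cells 5 of 8 fell, led by the let-7 antagonist Lin28a (-7.19 ± 0.15), Trim71 (-4.91 ± 0.31) and Sall4 (-4.74 ± 0.69), and 1 rose. Of 10 genes of the primed epiblast, 4 fell in Sox2 48 h cells over NMPs, Fgf8 most (-3.51 ± 0.39), and 4 rose and 2 fell in FGF Sox2+ over Sox2 48 h cells, Pou3f1 most (4.84 ± 0.49). Of 7 genes of the LIF and STAT3 response tested, which in embryonic stem cells acts on Klf4, only Lifr, the LIF receptor, was higher in DN than in Sox2+ cells (2.36 ± 0.33), and 3 rose and 1 fell in Tbxt 7 d over Tbxt 48 h cells. Of 11 other Klf genes tested, 6 rose and none fell in FGF Sox2+ over Sox2 48 h cells, Klf9 most (1.96 ± 0.46). In DN over Sox2+ cells Klf8 (2.496 ± 0.36) and Klf6 (1.24 ± 0.20) were higher and Klf12 (-1.10 ± 0.33) was lower. All of these calls have an adjusted p under 0.05 in limma.

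Reads shared with copies limit a few values. Dppa5a has near-identical copies, Dppa5b and Dppa5c, whose sum was 2.13 to 3.11% of the Dppa5a level in the 6 libraries where Dppa5a reached 5 CPM. Their values were equal to each other in all 15 libraries. The pseudogene Zfp42-ps1 reached 0 to 9.62% of the Zfp42 level in the 9 libraries where Zfp42 reached 5 CPM. Values that were not whole reads, as from split assignments, occurred in Dppa5a (11 libraries), Klf4 (12), Pou5f1 (8), Klf5 (7) and Zfp42 (3), and in none for the other 5 members.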

How the data were processed

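Total RNA of 15 sorted samples was measured as bulk RNA sequencing. Per the labels' protocols, bead-extracted RNA was primed with oligo-dT carrying unique molecular identifiers and made into libraries by tagmentation. The submitters' processing notes name STAR 2.7, SAMtools 1.21 and GRCm39; on counting, annotation and strand the sources used here say nothing. The authors deposited a table of CPM (counts per 1000000), in which each library sums to 1000000 over 78409 rows. Of these rows, 21909 without a gene name (1.10 to 1.81% of each library's CPM) and 92 spike-in rows were left out, and 627 rows sharing 311 symbols were summed, which left 56092 genes.

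The step of 1 read was read from each library's most common nonzero value, which gave its depth and the level of 3 reads; 71.1 to 78.7% of nonzero values were whole reads within 0.01, so reads were not recovered and no count test was run. Intervals and floors of this kind cover counting error only. Genes with at least 5 CPM in 2 libraries were tested with limma 3.58.1 (trend, robust, two-sided; R 4.3.3) on log2(CPM + 1), in 1 fit of 8 groups with 7 residual degrees of freedom, checked first on simulated data. Members, lists, motifs and comparisons were chosen with earlier results of these data known. All 10 members are named, and of each list up to 4 called genes with the largest difference; genes like Pou5f1 are the 5 with the highest Pearson r over group means. Differences under 0.5 that missed the threshold are given as levels. Alternatives were pseudocounts of 0.25 and 4, no filter, a filter at 20 CPM, median-of-ratios scaling, quantile normalization, the compared groups alone, a replicate block, and leaving out each library of groups with 2 or 3.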

Additional observations from a re-analysis of the deposited data

Results flagged for a closer look

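Of 10 members, 8 differed between lineages in the change from 48 h to 7 d, by a test of the difference itself (FGF Sox2+ over Sox2 48 h minus Tbxt 7 d over Tbxt 48 h, on the log2 scale). The difference was 1.94 for Pou5f1, 2.86 for Utf1, 4.19 for Zfp42, 2.27 for Esrrb, 3.85 for Nr0b1, 2.38 for Klf2, 3.01 for Klf5 and -3.08 for Klf4. Of all genes, 19.4% were called higher and 14.2% lower in this test. The call of Pou5f1 held in 8 of 17 alternatives to the processing and that of Esrrb in 7 of 16. The media and gates of the 2 lineages differ as well. Nr0b1 was tested only because it was high in FGF Sox2+ cells, but its calls here held with no filter; that of Esrrb between lineages ended (adjusted p = 0.0652). The difference between gates differed between media for Esrrb (-4.55) and Nr0b1 (-5.56), as DN over Sox2+ in FGF minus the same in FGF/CHIR. It was -3.93 for Esrrb without FGF Sox2+ replicate 1 and -5.16 without replicate 2. The call of Esrrb held in 7 of 9 alternatives to the processing, the highest limma adjusted p among them being 0.0715.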

How the results depend on the processing

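Of the members' 54 calls, 36 kept direction and call under every alternative tried; of 660 recomputed values 591 kept both, 69 lost the call and none turned. For uncalled differences the account covers 47 and not all of them: 37 of 520 values were called and 7 turned. Without FGF Sox2+ replicate 1 and without replicate 2, Nanog was -0.16 and 2.59 in FGF Sox2+ over Sox2 48 h, -2.14 and 0.61 over NMP and -0.38 and 2.37 in the difference of changes; Dppa5a was -1.66 and 2.77 over Sox2 48 h, 0.27 and -4.16 in FGF/CHIR Sox2+ over FGF Sox2+ and -1.14 and 3.30 in the difference of changes; Zfp42 was -0.23 and 1.64 over NMP. The cause was not tested.

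Counts of all genes called moved as follows. Sox2 48 h over NMP gave 1025, 668 with the filter at 20 CPM, 680 with the replicate block, 1760 from the compared groups alone, and 316 to 749 leaving out 1 library. Tbxt 48 h over NMP gave 2376 (709 to 2079), Tbxt 48 h over Sox2 48 h 505 (132 to 492, 1051 from the groups alone) and FGF Sox2+ over Sox2 48 h 3203 (1456 to 2920). FGF/CHIR Sox2+ over Sox2 48 h gave 234 (86 to 95), 153 with quantile normalization, 135 with the replicate block and 0 from the groups alone in limma (1739 at an unadjusted p under 0.05 in the fit of all libraries). FGF Sox2+ over NMP gave 3371 (1838 to 3093), FGF/CHIR Sox2+ over NMP 1259 (783 to 1057, 1907 from the groups alone), FGF/CHIR Sox2+ over FGF Sox2+ 1160 (743 with the filter at 20 CPM), DN over Sox2+ 1826 (1179 from the groups alone) and the difference of changes 4346 (2595 to 5185). The difference between media of the gate difference gave 316, 275 to 668 leaving out 1 library, 1229 without a filter, 132 with the replicate block and 185 from the groups alone. Whether library numbers pair samples was not settled. Residuals of same-numbered libraries correlated at -0.19 to 0.48 over 21 pairs, 4 of them over 0.1. Those of unlike numbers correlated at -0.48 to 0.22 over 36 pairs, 14 of them over 0.1. The highest values were between NMP and Tbxt 48 h, 0.48 for replicates 1 and 0.46 for replicates 2. In groups of 2 libraries the residuals mirror each other, so these pairs are not independent and the check cannot decide. With the replicate block the calls of Zfp42 in Sox2 48 h over NMP, Nr0b1 in Tbxt 48 h over NMP and Nr0b1 in DN over Sox2+ ended (adjusted p = 0.0903, 0.0806 and 0.0564).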
